A study of Mus musculus with 15 samples.

Results

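The genes described here encode the WNT ligands (Wnt genes), their Frizzled receptors (Fzd genes), the co-receptors Lrp5 and Lrp6, and the nuclear effectors Ctnnb1, Lef1, Tcf7l1 and Tcf7l2. They were chosen by symbol, as every probe set listed with 1 gene symbol of the form Wnt or Fzd followed by a digit, or with 1 of the co-receptor and effector symbols. The rule found 74 probe sets of 36 genes among 45101 probe sets, 18194 genes having a probe set with 1 symbol. By role they were 19 ligands, 10 Frizzled receptors, 2 co-receptors, 4 nuclear effectors and Fzd10os, an antisense transcript of the Fzd10 locus that the rule caught by its name. Tcf7 was not analysed here.

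RNA was taken from the first branchial arch, at stage E10.5 of mouse development, and measured on 15 arrays in 5 groups of 3. The groups were the wild-type (WT) mandibular branch, the mandibular branch of Dlx5/6 mutants, a first WT maxillary group (labelled WT_MXA, called set 1 here), a further one (labelled WT_MXA2, called set 2) and the maxillary branch of a mutant labelled KO. The mandibular branch forms the lower jaw and the maxillary branch most of the upper jaw. The labels named neither the gene lost in the KO group nor what set the WT maxillary groups apart, and their shared description, written as a plan, listed dlx2, dlx1/2 and Dlx5/6 mutants and foresaw pooled arches. Whether the arrays of a group held RNA of different embryos or pools was not labelled, and a p value then measures only how far these arrays spread, which may be technical. Whole tissue was measured, so fewer cells of a type and less RNA per cell cannot be told apart.

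Dlx5 and Dlx6, the genes the Dlx5/6 label names, were low in its libraries. Dlx5 gave a signal of 10.9 ± 2.97 (SD, n = 3) in the Dlx5/6 mutant and 727 ± 40.5 in WT mandibular tissue, and Dlx6 gave 3.32 ± 1.52 against 249.6 ± 51.3. In the KO group, whose label names no gene, Dlx2 gave 3.36 ± 0.180 against 422 ± 20.1 in set 2, Dlx1 gave 209 ± 11.7 against 711 ± 30.8, and Dlx5 gave 33.5 ± 5.98 against 117 ± 24.6. The 15 arrays formed separate array sets by the bacterial dap spike-in, which read 288.9 to 364 in the mandibular groups and set 1 (9 arrays) but 2648 to 2963 in set 2 and the KO group (6 arrays). Comparisons were made within an array set unless said otherwise. All 10 arch mesenchyme markers and all 12 epithelial markers looked for were measured above the filter, as were 6 of 12 forebrain and eye markers. Here ± gives the SD over 3 arrays for a signal and limma's SE for a log2 change, and a gene was called at a limma adjusted p under 0.05 over all probe sets tested.

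WNT ligands are secreted, lipid-modified proteins that bind Frizzled receptors together with the co-receptors Lrp5 and Lrp6. In the canonical branch this stops the breakdown of β-catenin (Ctnnb1), which then enters the nucleus and binds the DNA-binding proteins of the TCF/LEF family, Lef1, Tcf7, Tcf7l1 and Tcf7l2. Other ligands, Wnt5a among them, act mainly without β-catenin and steer cell polarity and movement. In the face, canonical signalling is active in epithelium and mesenchyme of the growing processes, and Wnt5a and Wnt9b are needed for normal outgrowth and fusion.

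Promoter sequences are shown for the called genes that had one in the RefSeq promoter table (GRCm38.p6), so that the letters before the start can be seen beside the values; the table matched 25 of the 36 member genes. Each sequence is the 250 bases before a start, 5′ to 3′ on the gene's strand, and capitals mark a motif match. The motifs searched, on both strands, were a pair of homeodomain words and 3 TCF/LEF words, each spelled out with its share of all starts after the sequences. The words share their first letters within each kind but none contains another, and a start can hold more than 1. Wnt5a and Fzd2 had no entry.
Fzd1, chr5:4758217-4758466, minus strand: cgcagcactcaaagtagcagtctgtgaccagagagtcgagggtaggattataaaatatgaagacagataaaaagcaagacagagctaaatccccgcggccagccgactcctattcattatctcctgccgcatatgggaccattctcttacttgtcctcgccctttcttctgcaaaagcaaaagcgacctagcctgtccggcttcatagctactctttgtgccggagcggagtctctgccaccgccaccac
Tcf7l1, chr6:72789046-72789295, minus strand: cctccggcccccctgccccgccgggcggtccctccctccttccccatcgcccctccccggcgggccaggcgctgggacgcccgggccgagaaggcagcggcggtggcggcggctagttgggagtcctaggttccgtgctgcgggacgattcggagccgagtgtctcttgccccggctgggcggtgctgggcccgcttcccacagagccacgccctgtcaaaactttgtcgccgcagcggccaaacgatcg
Tcf7l2, chr19:55741560-55741809, plus strand: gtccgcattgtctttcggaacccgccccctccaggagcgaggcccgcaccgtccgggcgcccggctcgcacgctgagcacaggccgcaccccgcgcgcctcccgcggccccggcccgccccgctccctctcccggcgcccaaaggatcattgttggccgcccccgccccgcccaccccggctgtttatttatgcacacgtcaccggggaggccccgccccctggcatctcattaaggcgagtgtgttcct
Tcf7l2, internal start, chr19:55895071-55895320, plus strand: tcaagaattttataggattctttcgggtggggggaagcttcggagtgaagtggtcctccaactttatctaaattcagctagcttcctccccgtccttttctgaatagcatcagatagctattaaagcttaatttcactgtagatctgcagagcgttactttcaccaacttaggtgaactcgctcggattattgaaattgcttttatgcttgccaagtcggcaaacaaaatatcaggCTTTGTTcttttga

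The upstream Tcf7l2 window and those of Fzd1 and Tcf7l1 held none of the 5 words, and the internal Tcf7l2 start held CTTTGTT. Among 32851 starts in the table, the homeodomain word TAATTA was found before 4.84% and TAATTG before 7.17%. The TCF/LEF word CTTTGAT was found before 3.21%, CTTTGAA before 4.46% and CTTTGTT before 5.03%. Any of the words stood before 21.5% of all starts and before 5 of 33 starts of member genes, those of Fzd7, Tcf7l2, Wnt11, Wnt5b and Wnt8b. The GC content was 51.2% before Fzd1, 73.6% before Tcf7l1, and 72.8% and 40.8% before the upstream and internal Tcf7l2 starts, against a median of 52.4% over all starts. A match describes letters in a window and no binding was measured.

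Of the members, 63 probe sets of 31 genes passed the filter on dim signals, beside 31643 probe sets and 13934 genes over the whole array. The 10 Frizzled receptors, both co-receptors, all 4 effectors, Fzd10os and 14 of the 19 ligands passed. The ligands Wnt1, Wnt2, Wnt2b, Wnt3 and Wnt8b did not, and the ligand probe sets left out, including 2 of Wnt7a, read between 0.367 and 37.4 on the 15 arrays. Signals of different probe sets depend on the probes as well as on the transcript and were not set against each other.

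**Figure D1:**
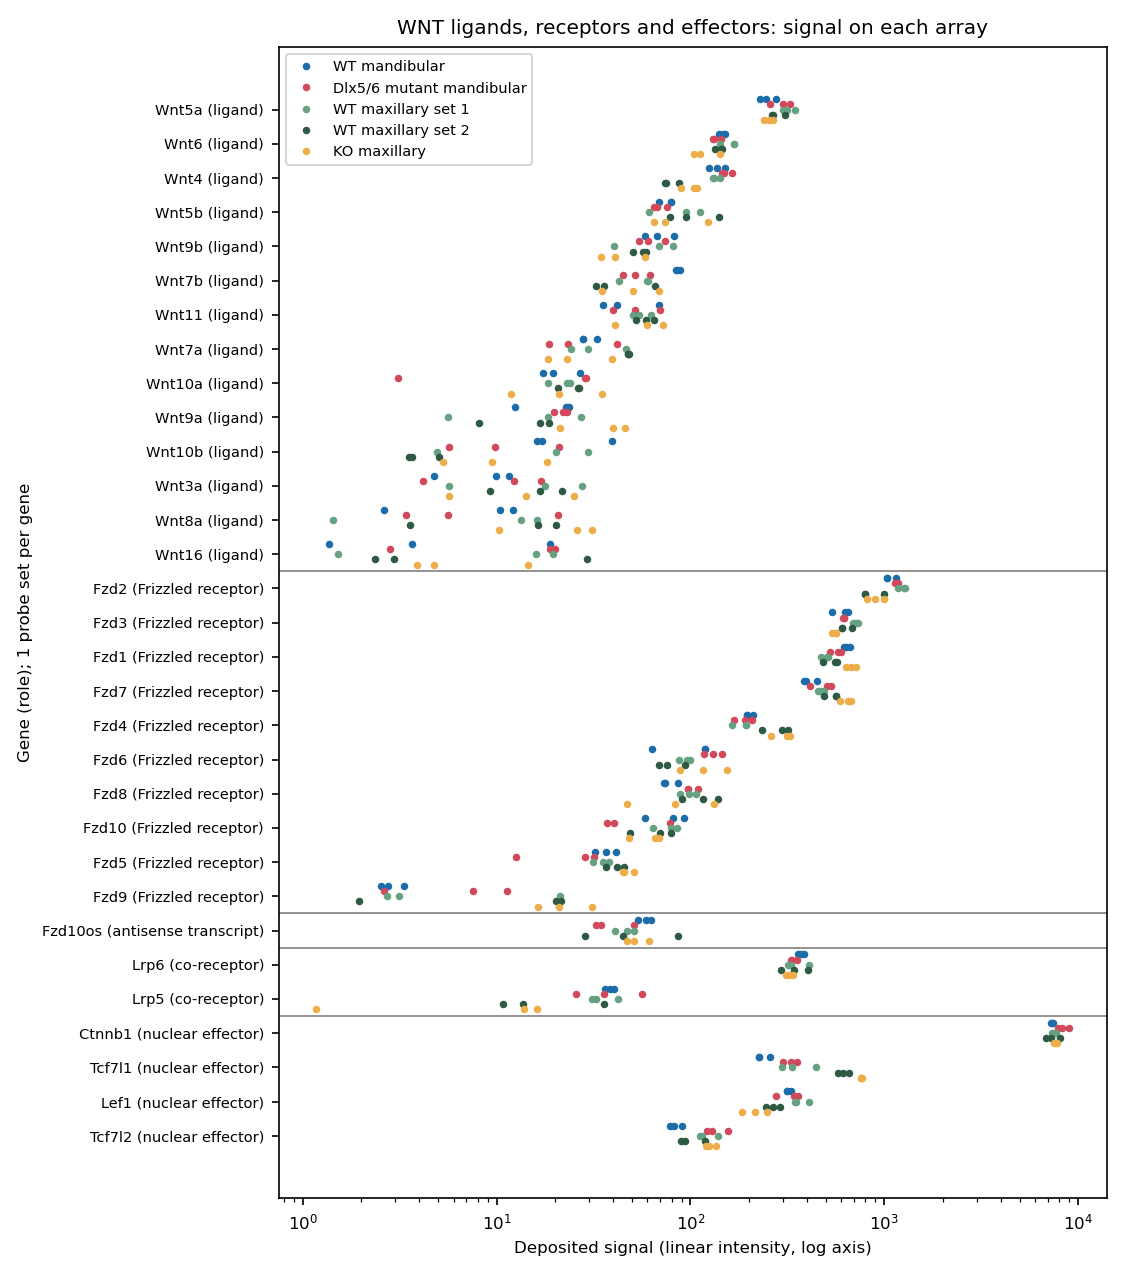
Signal on each of the 15 arrays (log axis, linear intensity units) for the probe set used for each of the 31 genes that passed the filter, grouped by role and sorted by mean signal within a role for layout; points are single arrays coloured by group. Most genes show the 5 groups close together, while Tcf7l1 lies at 227 to 257 on the WT mandibular arrays. In the other array set Tcf7l1 lies at 580 to 656 in WT maxillary set 2 and at 754 to 763 in the KO group.

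Among the ligands with the strongest signals, Wnt5a, which acts mainly in the non-canonical branch, read 276, 247 and 229 on the WT mandibular arrays and 326, 257 and 299 on the Dlx5/6 mutant arrays. It read 317, 347 and 302 in set 1, 306, 266 and 264 in set 2, and 239, 256 and 268 in the KO group. Every array of set 1 lay above every WT mandibular array, while the Dlx5/6 mutant, set 2 and KO arrays overlapped with them. Wnt6, an epithelial ligand, had group means from 120 ± 20.1 in the KO group to 159 ± 14.6 in set 1. Wnt4 had means of 137 ± 13.2, 153 ± 10.3 and 135 ± 6.32 in WT mandibular, Dlx5/6 mutant and set 1, and lower means of 78.7 ± 7.82 and 100.5 ± 9.75 in set 2 and the KO group, which form the other array set. The means of Wnt5b, Wnt7a, Wnt7b, Wnt9b and Wnt11 lay between 27.0 and 104.6. Those of Wnt3a, Wnt8a, Wnt9a, Wnt10a, Wnt10b and Wnt16 lay between 4.08 and 35.7, with single arrays of a group often several-fold apart.

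Among the Frizzled receptors, Fzd2 had group means from 864 ± 114 in set 2 to 1241 ± 51.6 in set 1. Fzd3, best known for its part in planar polarity and axon guidance, had means from 554 ± 12.5 in the KO group to 710.1 ± 22.2 in set 1. Those of Fzd7 ran from 410 in WT mandibular to 637 in the KO group, and those of Fzd4 from 184 in set 1 to 302 in the KO group. These ranges, like those of Fzd2 and Fzd3, cross the array sets. The group means were 79.4 to 131 for Fzd6, 77.8 to 115 for Fzd8 and 51.9 to 77.2 for Fzd10. They were 24.3 to 47.0 for Fzd5 and 2.87 to 22.8 for Fzd9. Of the co-receptors, Lrp6 read 325 ± 14.1 to 371 ± 13.3 across groups, and Lrp5 read 10.4 ± 8.08 in the KO group to 39.3 ± 15.7 in the Dlx5/6 mutant.

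Ctnnb1, which encodes β-catenin, read 7321 ± 66.5 in WT mandibular, 8381 ± 590 in the Dlx5/6 mutant, 7499 ± 204 in set 1, 7369 ± 632 in set 2 and 7656 ± 121 in the KO group as deposited. Every Dlx5/6 mutant array lay above every WT mandibular array there, but not after quantile normalization, which fixes the spread of the brightest probe sets. The log2 change in the Dlx5/6 mutant was 0.02 ± 0.04 with it (95% interval -0.07 to 0.11) and 0.19 ± 0.06 as deposited, and neither was called (limma adjusted p = 0.926 and 0.115). It was 0.00 ± 0.04 between the WT branches and 0.01 ± 0.04 in the KO group, with intervals of -0.09 to 0.09 and -0.08 to 0.11. Lef1, a TCF/LEF factor induced in many tissues that receive WNT signals, read 330, 316 and 315 in WT mandibular, 344, 359 and 278 in the Dlx5/6 mutant, 347, 411 and 350 in set 1, 268, 246 and 291 in set 2, and 249, 215 and 184 in the KO group. Its lowest signals lay in the KO group and in set 2, which form the same array set.

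In the wild type, 2 of the 31 genes differed between the mandibular and the maxillary branch (set 1), which was 1 higher and 1 lower, against 3.47% of all genes called (1.49% higher and 1.97% lower). Fzd1, a Frizzled receptor, was higher in the mandibular branch. It read 664, 638 and 622 on the mandibular arrays and 472, 514 and 507 on those of set 1, so the groups did not overlap, and the log2 difference was 0.34 ± 0.08 (limma adjusted p = 0.0113). Tcf7l1, a TCF factor that mostly represses its targets when β-catenin is absent, was lower in the mandibular branch. It read 227, 227 and 257 against 443, 296 and 334, again with no overlap, and the log2 difference was -0.51 ± 0.10 (adjusted p = 0.00461).

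A further probe set of Fzd1 gave a log2 difference of 0.30 ± 0.13 that was not called (adjusted p = 0.341), and a further one of Tcf7l1 gave 0.03 ± 0.15. Fzd2 was called lower on 1 of its 3 probe sets, with 946, 905 and 759 in the mandibular branch against 1035, 1057 and 1052 in set 1, a log2 difference of -0.28 ± 0.07 (adjusted p = 0.0395). The probe sets not called gave -0.22 ± 0.08 and -0.13 ± 0.07. In all, 3 of 63 member probe sets were called, against 2.64% of probe sets. The Tcf7l1 call held under all 18 other settings. The Fzd1 call was lost under 4 of 18 settings, among them leaving out the first array of set 1, with adjusted p up to 0.0695, and the Fzd2 call under 13 of 18.

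Over the 31 genes the log2 differences ran from -0.51 to 0.46 with a median of -0.02, and the median over all genes was 0.00. The median size of the difference, without its sign, was 0.14, beside 0.11 over all genes. On the normalized log2 scale the groups did not overlap for 11 of the 31 genes, 3 higher and 8 lower in the mandibular branch, and for 19.4% of all genes. Chosen after their values were seen, these included Wnt7b at 84.8, 88.5 and 83.8 against 60.0, 60.7 and 42.7 (0.46 ± 0.17, adjusted p = 0.211), Wnt5a (-0.33 ± 0.10, adjusted p = 0.0864) and Tcf7l2 (-0.39 ± 0.12, adjusted p = 0.0879). The unadjusted limma p was under 0.05 for 8 of the 31 genes, against 13.5% of all genes. Sensory neuron markers moved with this contrast: 10 of 12 were measured, all 10 were called lower in the mandibular branch, and their summed signal was 516 to 540 against 2720 to 2797 in set 1. Glial markers (3 of 5 measured) summed to 167 to 214 against 581 to 740, the 10 macrophage markers to 343 to 385 against 562 to 576, and the 10 arch mesenchyme markers to 7534 to 8158 against 9090 to 9595. Of these mesenchyme markers, 1 was called higher and 5 lower. Sums were higher in the mandibular branch for the 12 epithelial markers, at 2875 to 3004 against 2660 to 2718, and for the 8 arch muscle markers, at 434 to 456 against 316 to 356. Called higher were 2 muscle and 0 epithelial markers. Called lower were 3 glial and 2 macrophage markers. Their part in the WNT differences was not tested.

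**Figure D2:**
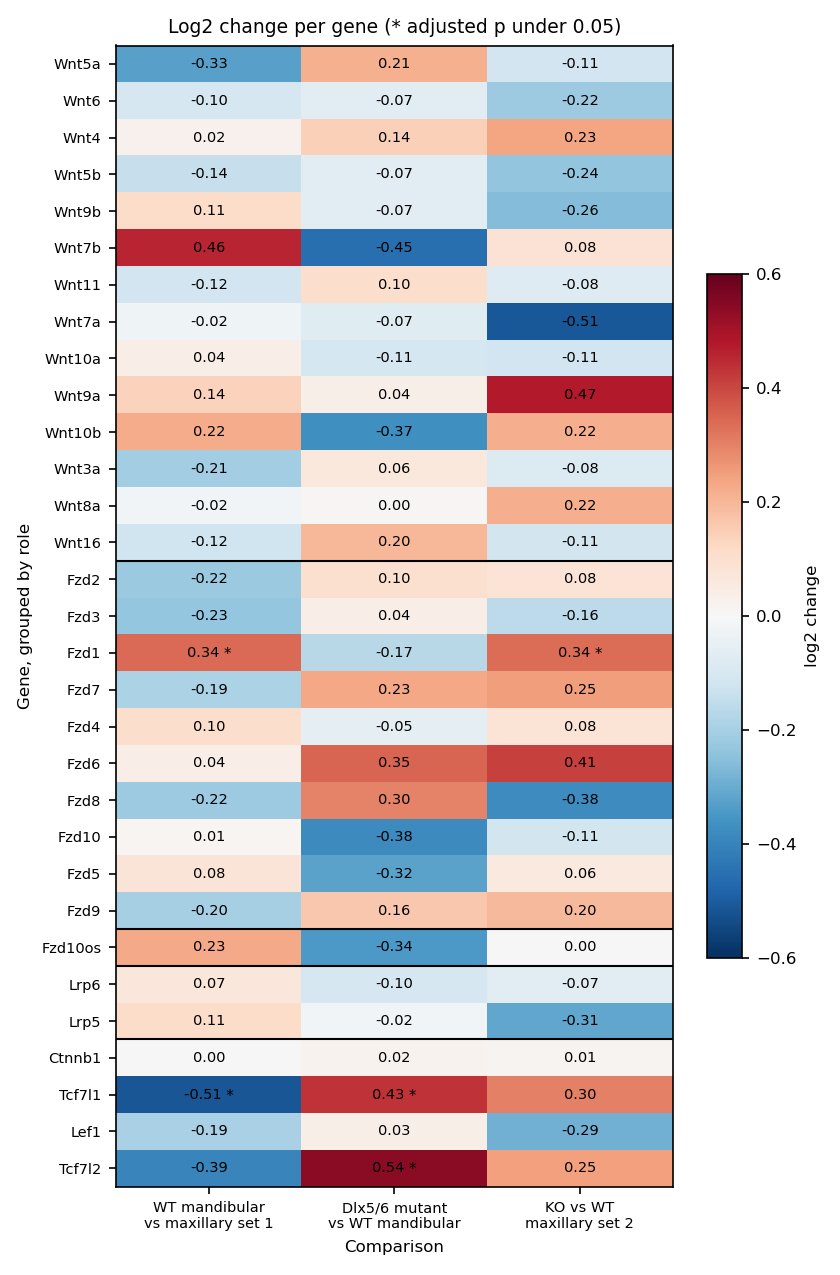
Log2 change (colour and number) of the 31 genes in the comparison of WT mandibular with WT maxillary set 1, Dlx5/6 mutant with WT mandibular, and KO with WT maxillary set 2; rows are genes grouped by role with lines between roles, and a star marks a limma adjusted p under 0.05. Stars stand at Fzd1 (0.34 in the first and in the KO column), Tcf7l1 (-0.51 and 0.43) and Tcf7l2 (0.54).

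In the Dlx5/6 mutant mandibular branch, 2 of the 31 genes changed against WT mandibular and both rose, against 3.09% of all genes called (1.54% higher and 1.56% lower). Both encode TCF factors. Tcf7l2 read 78.6, 82.2 and 90.9 on the WT arrays and 157, 130 and 121 on the mutant arrays, a log2 change of 0.54 ± 0.12 (limma adjusted p = 0.0113). Tcf7l1 read 227, 227 and 257 on the WT arrays and 355, 300 and 331 on the mutant arrays, a change of 0.43 ± 0.10 (adjusted p = 0.0237). For both genes every mutant array lay above every WT array. The WT mandibular arrays enter this comparison and the one between the branches. Opposite signs in them, for Tcf7l1 and for the pathway genes further below, are therefore not independent of each other.

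On further probe sets, Wnt5a and Fzd2 were also called higher. Wnt5a read 146, 185 and 177 on the WT arrays and 239, 244 and 250 on the mutant arrays, a log2 change of 0.47 ± 0.10 (adjusted p = 0.00826), while its brightest probe set gave 0.21 ± 0.10 and the remaining ones 0.34 ± 0.16 and 0.07 ± 0.14, none of them called. Fzd2 read 946, 905 and 759 against 1094, 1062 and 1217, a change of 0.36 ± 0.07 (adjusted p = 0.0071), while its other probe sets gave 0.10 ± 0.08 and 0.15 ± 0.07. The called genes were likewise split between probe sets. The other 3 probe sets of Tcf7l2 gave -0.05 ± 0.21, 0.16 ± 0.19 and 0.01 ± 0.16, and the other one of Tcf7l1 gave 0.14 ± 0.15. In all, 4 of 63 member probe sets were called, against 2.66% of probe sets.

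**Figure D3:**
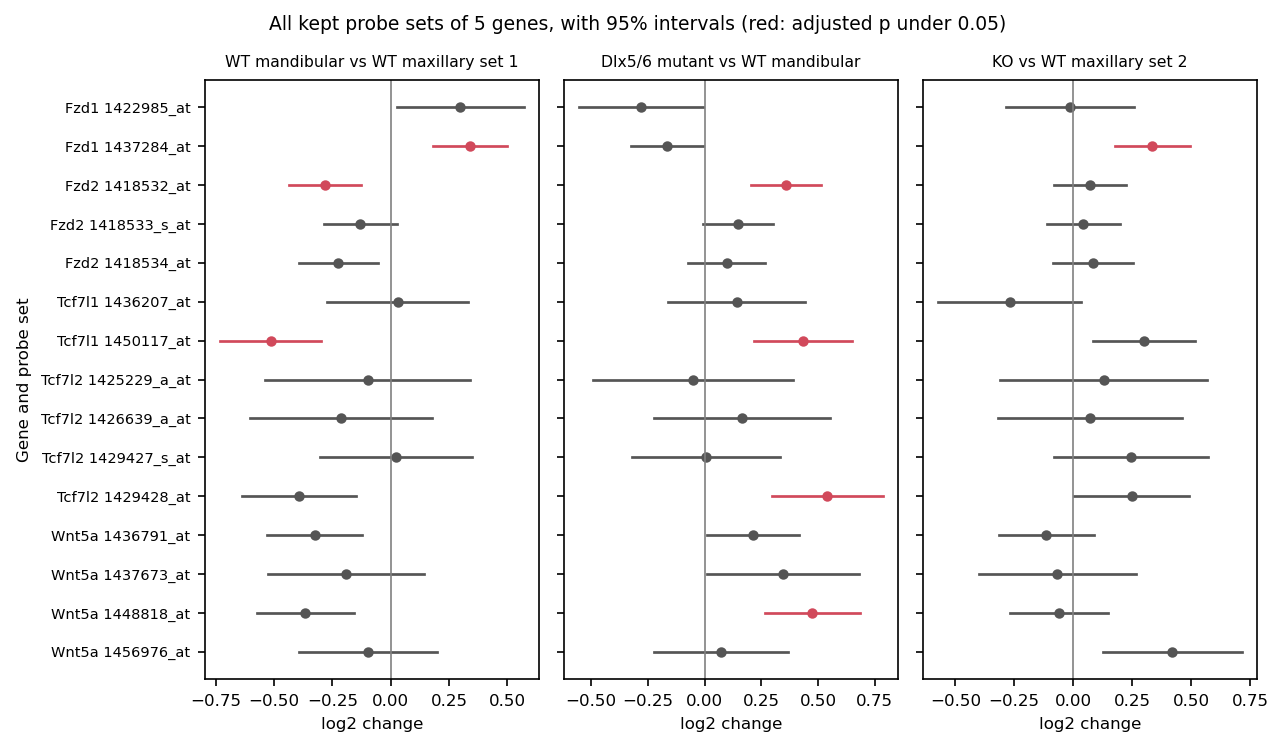
Log2 change with its 95% interval for every probe set above the filter of Fzd1, Fzd2, Tcf7l1, Tcf7l2 and Wnt5a, in 3 comparisons; red marks a limma adjusted p under 0.05. In each gene and comparison with a red interval, the other probe sets are grey, such as the further one of Fzd1 at -0.01 in the KO comparison.

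The other members moved less or varied more. The log2 changes of the 31 genes ran from -0.45 to 0.54 with a median of 0.02, beside -0.01 over all genes. The median size of the change, without its sign, was 0.11, as over all genes. By limma 8 of the 31 genes had an unadjusted p under 0.05, against 14.3% of all genes. The groups did not overlap for 7 genes, 3 higher and 4 lower in the mutant, and for 20.0% of all genes. Among the lower ones, chosen after their values were seen, Wnt7b read 52.1, 45.0 and 61.6 in the mutant (-0.45 ± 0.17, adjusted p = 0.2) and Fzd1 gave -0.17 ± 0.08 (adjusted p = 0.34). The summed signal of the 10 macrophage markers was 552 to 603 in the mutant and 343 to 385 in WT, and that of the 10 arch mesenchyme markers 9018 to 9504 against 7534 to 8158. That of the 8 arch muscle markers was 302 to 386 against 434 to 456, and that of the 7 primitive erythroid markers 29558 to 34316 against 27147 to 28788. Of the erythroid markers 0 were called, with a median log2 change of -0.06. Of the macrophage markers 1 was called higher, and of the muscle markers 1 was called lower. Of the mesenchyme markers, which include Dlx1, Dlx2 and Twist1, 3 were called higher and 1 lower. The part of these marker groups in the WNT changes was not tested. Leaving out the first mutant array ended both calls, and the Tcf7l1 call was also lost without the third mutant array, the first or the second WT array, and under 3 other settings. The Wnt5a call was lost without the first WT array, and the Fzd2 call without the third array of either group or without the intensity trend.

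In the KO maxillary branch, 1 of the 31 genes changed against set 2, against 1.20% of all genes called (0.603% higher and 0.596% lower). Fzd1 rose, with 672, 715 and 636 on the KO arrays against 556, 484 and 569 on those of set 2. The groups did not overlap and the log2 change was 0.34 ± 0.08 (limma adjusted p = 0.0319), but the other Fzd1 probe set gave -0.01 ± 0.13. That was the only call among 63 member probe sets, against 0.913% of probe sets. The Fzd1 call was lost under 10 of 18 other settings, among them leaving out the first or the second array of either group and both other scalings, with adjusted p up to 0.175.

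Tcf7l1 read 754, 763 and 762 in the KO group against 580, 612 and 656 in set 2 without overlap, and its log2 change of 0.30 ± 0.10 was not called (adjusted p = 0.251). The other Tcf7l1 probe set went the other way, with -0.27 ± 0.15 (adjusted p = 0.563). Lef1 gave -0.29 ± 0.11 (adjusted p = 0.29), without overlap once normalized. Over the 31 genes the changes ran from -0.51 to 0.47 with a median of 0.00, as over all genes. The median size of the change, without its sign, was 0.22, beside 0.11 over all genes. By limma 10 of the 31 genes had an unadjusted p under 0.05, against 11.4% of all genes. The groups did not overlap for 8 genes, 5 higher and 3 lower, and for 16.1% of all genes. Chosen after their values were seen, the ends of the range were the dim ligands Wnt7a (-0.51 ± 0.17, adjusted p = 0.207) and Wnt9a (0.47 ± 0.19, adjusted p = 0.345). Macrophage markers summed to 815 to 852 in the KO group and 525 to 576 in set 2, the 8 endothelial markers to 1174 to 1322 against 858 to 975, and the arch mesenchyme markers, which include Dlx1 and Dlx2, to 7293 to 7596 against 8924 to 9394. The sensory neuron markers, 3 of 10 called lower, summed to 915 to 937 against 1131 to 1148, and the glial markers to 330 to 349 against 362 to 470. Sums were higher in the KO group for the epithelial markers, at 2985 to 3079 against 2578 to 2702, and for the arch muscle markers, at 384 to 403 against 281 to 327. Called higher were 2 macrophage, 1 endothelial, 1 muscle and 0 epithelial markers. Called lower were 4 mesenchyme and 0 glial markers. Their part in the Fzd1 change was not tested.

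**Figure D4:**
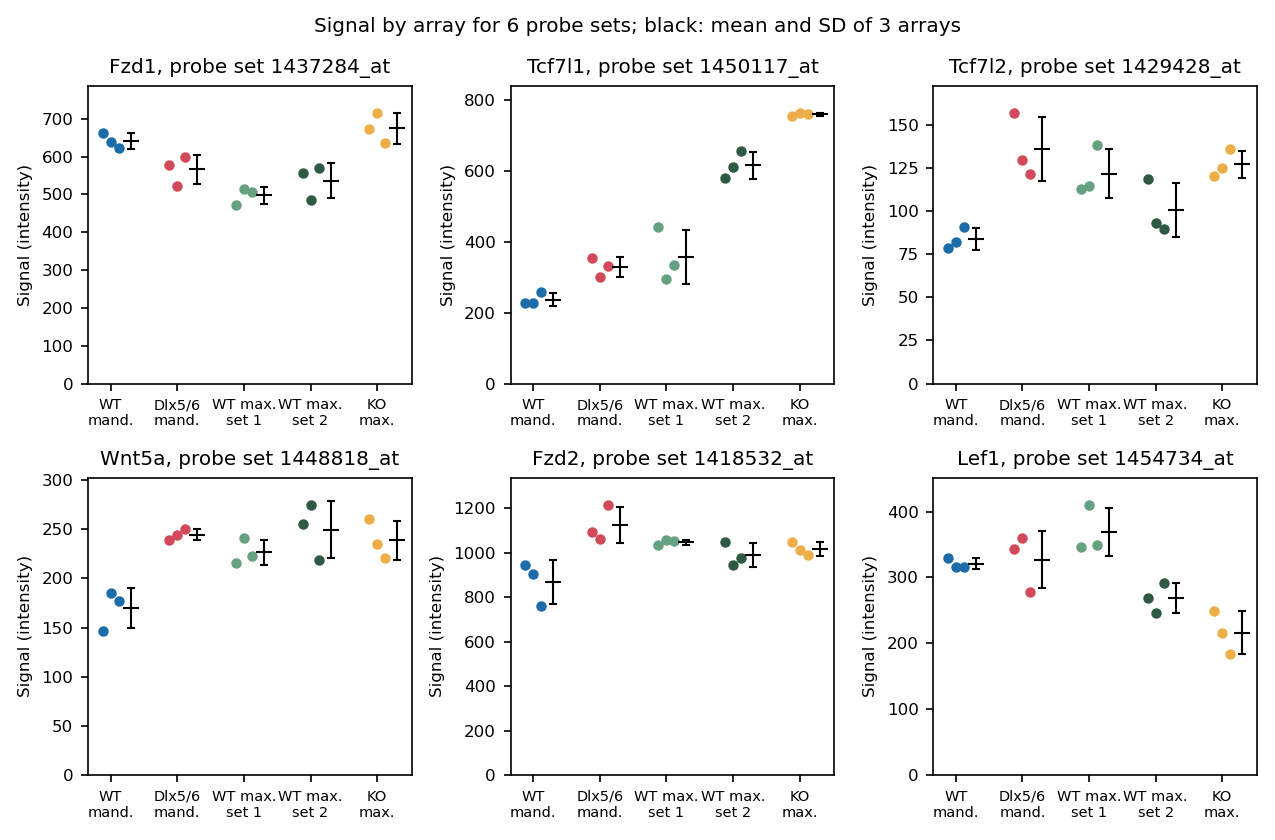
Signal on each array (points) with the mean and SD of 3 arrays (black) for 6 probe sets in the 5 groups; axes start at 0. The WT mandibular arrays are the lowest for Tcf7l1 (227 to 257) and Wnt5a (146 to 185). Those for Tcf7l2 (78.6 to 90.9) overlap with set 2. The KO arrays are the highest for Tcf7l1 (754 to 763), above those of set 2 (580 to 656) in the same array set.

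Whether a member responded differently in the mutants was tested as the Dlx5/6 change minus the KO change. These changes were measured in different branches and different array sets. Mutation, branch and array set therefore cannot be told apart in this difference. Fzd1 was called, with a difference of -0.50 ± 0.11 (limma adjusted p = 0.0164, 95% interval -0.73 to -0.28), made up of -0.17 in the Dlx5/6 mutant and 0.34 in the KO group. It was 1 of 31 genes and 1 of 63 probe sets, against 1.36% of genes (0.660% above and 0.703% below 0) and 1.09% of probe sets. The other probe set gave -0.27 ± 0.19 (adjusted p = 0.695). Tcf7l1 gave 0.13 ± 0.15 with an interval of -0.18 to 0.44 and Tcf7l2 gave 0.29 ± 0.17 with an interval of -0.05 to 0.64. Both were called in the Dlx5/6 mutant only, and their changes were not shown to differ between the mutants. The called Wnt5a probe set gave 0.53 ± 0.14 (adjusted p = 0.0798). The Fzd1 call was lost without the second Dlx5/6 mutant, KO or set 2 array, and under 3 other settings.

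Set beside set 1, the Dlx5/6 mutant mandibular arrays gave 0 calls among the 31 genes, against 0.797% of all genes called (0.251% higher and 0.545% lower), and 0 among 63 probe sets, against 0.594%. By limma 3 genes had an unadjusted p under 0.05, against 8.83% of all genes, and the groups did not overlap for 5 genes, against 14.1% of all genes. Fzd1 lay at 578, 523 and 598 in the mutant and 472, 514 and 507 in set 1, and Tcf7l1 at 355, 300 and 331 and at 443, 296 and 334, the latter with overlap. The WT maxillary groups differed in 6 of 31 genes, 2 higher and 4 lower in set 2, against 8.78% of all genes called (3.80% higher and 4.98% lower). They differed in 6 of 63 probe sets, against 8.49%, and did not overlap for 8 genes, against 25.9% of all genes. Array set and group cannot be told apart there. Tcf7l1 (0.77 ± 0.10) and Fzd4 (0.56 ± 0.11) were higher in set 2, while Wnt4 (-0.57 ± 0.11), Fzd2 (-0.53 ± 0.08), Lef1 (-0.40 ± 0.11) and Ctnnb1 (-0.16 ± 0.04) were lower, with limma adjusted p between 3.39e-05 and 0.0295. The further probe sets of these genes were not called. The Ctnnb1 call was lost as deposited (-0.03, adjusted p = 0.856). Sensory neuron markers summed to 1131 to 1148 in set 2, below set 1, and their part was not tested.

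The rest of the pathway was followed through 6 lists with 97 genes, of which 85 were measured. In the WT mandibular branch, relative to set 1, 4 of them were higher and 7 lower (7 and 7 when each array was only shifted to the same median). In the Dlx5/6 mutant 9 rose and 6 fell, and in the KO group 1 rose and 5 fell. Of all genes, 3.47%, 3.09% and 1.20% were called in these comparisons. The 17 measured genes of the cytoplasmic relay and destruction complex (such as Dvl, Axin1, Apc and Gsk3b) and the 14 nuclear cofactors gave 0 calls in each of these 3 comparisons, with medians between -0.09 and 0.04. Of the 17 secreted modulators measured, 3 were called higher and 3 lower between the branches, 3 and 4 in the Dlx5/6 mutant, and 0 and 1 in the KO group.

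Feedback and common target genes, 14 of them measured, fell in the KO group for 4 genes and rose for 0, with a list median of 0.03, beside 0.596% of all genes called lower and 0.603% higher. Apcdd1, a membrane inhibitor of WNT signalling that WNT itself induces, read 166, 156 and 164 in the KO group and 343, 331 and 330 in set 2. The log2 change was -0.93 ± 0.09 (limma adjusted p = 1.71e-06), and 4 of its other 5 probe sets were called lower as well. Axin2, the negative feedback gene most used as a readout of canonical signalling, read 149, 151 and 185 against 275, 250 and 229, a change of -0.56 ± 0.10 (adjusted p = 0.00339), and its other probe set gave -0.68 (adjusted p = 0.0977). Both calls held under all 18 other settings. Ccnd1, a cell cycle gene, gave -0.31 ± 0.07 (adjusted p = 0.032) and Msx2, a homeobox gene, -0.36 ± 0.09 (adjusted p = 0.0487), calls lost under 10 and 12 of 18 settings. The other Msx2 probe set gave 0.11 (adjusted p = 0.881). Further Ccnd1 probe sets gave -0.36 and -0.33 (limma adjusted p = 0.014 and 0.267).

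In the Dlx5/6 mutant 3 genes of this list rose and 1 fell, beside 1.54% of all genes called higher and 1.56% lower. Axin2 (0.03 ± 0.10) and Apcdd1 (0.14 ± 0.09) were not called there. The difference of the mutant effects was called for 2 of the 14 genes, beside 1.36% of all genes. It was 1.08 ± 0.13 for Apcdd1 (adjusted p = 1.87e-05) and 0.60 ± 0.14 for Axin2 (adjusted p = 0.0384), and the Axin2 call was lost under 13 of 24 settings. As for Fzd1, mutation, branch and array set cannot be told apart in these differences. Myc (0.58 ± 0.12, adjusted p = 0.00548), Twist1 (0.45 ± 0.07) and Tbx3 (0.42 ± 0.10, adjusted p = 0.0169) rose, while Ccnd1 fell, with a log2 change of -0.42 (adjusted p = 0.000904). The Tbx3 call was lost under 6 of 17 settings, with adjusted p up to 0.0898. Among them were leaving out the first or the third mutant array or the first or the second WT array. Further Tbx3 probe sets gave 0.38, 0.47 and 0.12 (limma adjusted p = 0.0455, 0.0478 and 0.882). Further Ccnd1 probe sets gave -0.36 and -0.12 (limma adjusted p = 0.00666 and 0.769). Twist1 and Tbx3 were also the list's calls between the WT branches, lower in the mandibular branch by -0.39 ± 0.07 and -0.68 ± 0.10.

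**Figure D5:**
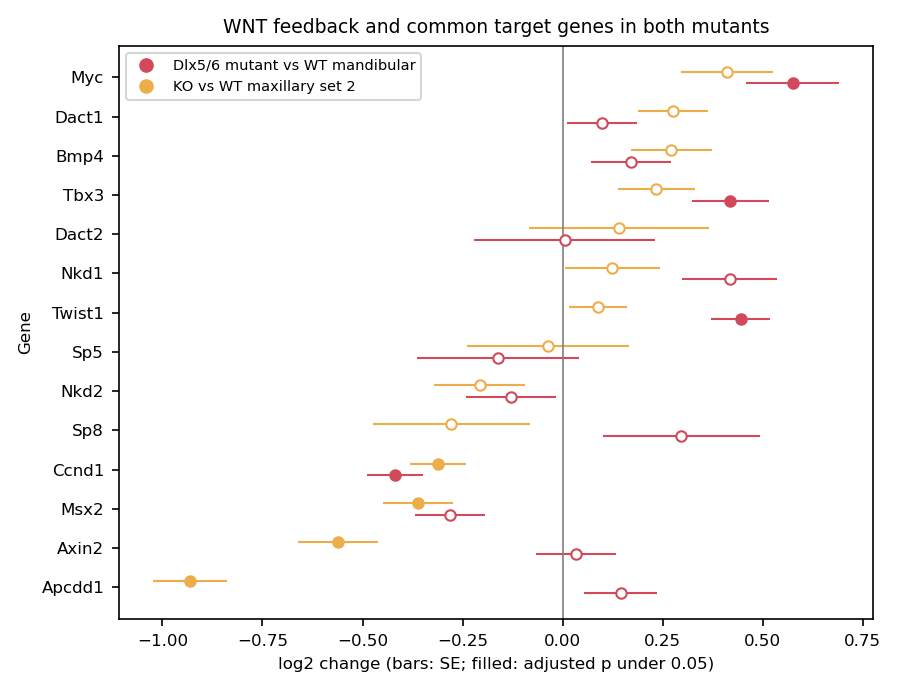
Log2 change with its SE for the 14 measured feedback and common target genes, in the Dlx5/6 mutant against WT mandibular (red) and in the KO group against WT maxillary set 2 (yellow); filled points have a limma adjusted p under 0.05. Apcdd1 and Axin2 lie at -0.93 and -0.56 in the KO group and at 0.14 and 0.03 in the Dlx5/6 mutant, while Ccnd1 is lower in both (-0.31 and -0.42).

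Of the genes for ligand secretion and other receptors, 12 were measured. Ror1, a receptor kinase for Wnt5a, rose in the Dlx5/6 mutant, with 412, 415 and 405 against 315, 296 and 289 in WT (0.42 ± 0.07, adjusted p = 0.00123), and was lower in the WT mandibular than in the maxillary branch (-0.45 ± 0.07, adjusted p = 0.000448). The glypican Gpc3 was higher in the WT mandibular branch (0.50 ± 0.05) and fell in the Dlx5/6 mutant (-0.32 ± 0.05, adjusted p = 0.000844). That fall was not called under 3 of 17 settings, among them the deposited scaling (-0.22, adjusted p = 0.0608) and the median shift (-0.24, adjusted p = 0.0552). Gpc4, a related glypican, rose in both mutants, by 0.41 ± 0.11 in the Dlx5/6 mutant (adjusted p = 0.049, lost under 12 of 17 settings) and 0.53 ± 0.11 in the KO group (adjusted p = 0.0143, lost under 7 of 18). The other Gpc4 probe set gave 0.29 and 0.39 there and was not called (adjusted p = 0.267 and 0.174). Between the WT branches that probe set was called lower in the mandibular branch (-0.55, adjusted p = 0.00896). Among 11 planar polarity genes, Prickle1 was the call in each of the mandibular comparisons, at -0.71 ± 0.09 between the branches and 0.51 ± 0.09 in the Dlx5/6 mutant. It read 176, 164 and 168 in WT mandibular, 279, 245 and 234 in the mutant and 299, 288 and 309 in set 1, and its change differed between the mutants by 0.71 ± 0.13 (adjusted p = 0.00472). Further Prickle1 and Ror1 probe sets were not called. The opposite signs of Ror1, Gpc3 and Prickle1 in the mandibular comparisons, like those of Twist1 and Tbx3, rest on shared WT mandibular arrays.

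The secreted modulators called were Dkk1, Dkk2, Rspo2, Rspo3 and Sfrp2 among others. Dkk1, which blocks Lrp5 and Lrp6, was higher in the WT mandibular branch by 1.21 ± 0.11, with 297, 239 and 259 against 92.3, 104.7 and 91.4 in set 1. Rspo2, which enhances WNT signalling by stabilising Frizzled receptors, fell in both mutants on 1 of 2 probe sets, by 1.12 in the Dlx5/6 mutant and by 0.84 in the KO group on the log2 scale. The other Rspo2 probe set gave -0.05 and 0.46 and was not called.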

How the data were processed

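The values were the deposited intensity of each probe set on 15 Affymetrix mouse arrays, on a linear scale, 1 column per sample of the series' value table. The software behind them is not given in the sources used here. Deposited intensities had been scaled by the authors or their software, as the mean without the lowest and highest 2% was 150.0 on every array. Array medians ran from 26.6 to 33.4, and arrays correlated with their group mates at 0.984 to 0.990.

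Here the values were taken as log2(intensity + 32), which understates changes of dim genes, and quantile normalized. A probe set was kept if, on 3 arrays or more, it exceeded that array's 40th percentile. The probe table, from GEO's platform annotation, gave 1 symbol for 34958 probe sets, several for 932 and none for 9211; all 74 member probe sets were found in the RefSeq gene table and 0 were renamed. A gene was represented by its brightest kept probe set with 1 symbol, those ending in _at alone preferred.

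All comparisons were contrasts of the same linear model, fitted in limma 3.58.1 (R 4.3.3) with a mean per group over 15 arrays, 10 residual degrees of freedom, an intensity trend and two-sided p values with Benjamini-Hochberg adjustment over the 31643 kept probe sets, called under 0.05. The procedure was tested on simulated data. The number of arrays limited the precision. Alternatives were other scalings, pseudocounts, filters, thresholds and probe sets, a fit without trend, of the compared groups alone, with a replicate block, with the other WT maxillary control, and without each array.

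The members, comparisons and gene lists were chosen with earlier results of these data known. Genes were named where they were called, on any probe set, where they had 1 of the 3 strongest signals of their role, or among up to 4 called genes per pathway list and comparison; others are said to be chosen after their values were seen.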

Additional observations from a re-analysis of the deposited data

Results flagged for a closer look

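Fzd1 was called in the test of the difference between the mutants. Its brightest probe set gave a difference of the mutant effects, Dlx5/6 minus KO, of -0.50 ± 0.11 (limma adjusted p = 0.0164), a test of the difference itself. Mutation, branch and array set cannot be told apart in that difference. The change was -0.17 in the Dlx5/6 mutant, which was not itself called (adjusted p = 0.34), with all 3 mutant arrays below all 3 WT mandibular arrays, and 0.34 in the KO group, with all 3 KO arrays above all 3 arrays of set 2. The other Fzd1 probe set gave -0.27 ± 0.19, which was not called. The call of the brightest probe set was lost under 6 of 24 settings, among them leaving out the second Dlx5/6 mutant, KO or set 2 array, with adjusted p up to 0.0926.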

How the results depend on the processing

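The count of member genes called fell to 0 of 31 for the Dlx5/6 mutant, the KO group and the difference of the mutant effects, and to 1 between the WT branches, at an adjusted p under 0.01. Without the intensity trend it was 1 for the Dlx5/6 mutant, 1 between the WT branches, and 0 for the KO group and the difference. With arrays shifted to a common median it was 1 for the Dlx5/6 mutant, 0 for the KO group and 0 for the difference, and with the deposited scaling or a fit of the compared groups alone it was 0 for the KO group. With the WT maxillary control of the other array set, the counts were 8 between the branches, 11 for the KO group and 6 for the difference, where array set and group cannot be told apart. Leaving out 1 array gave 1 to 2 calls between the branches, 0 to 2 in the Dlx5/6 mutant, 0 to 1 in the KO group, 0 to 1 for the difference, 0 to 0 for the Dlx5/6 mutant against set 1 and 4 to 5 between the WT maxillary groups. The last 2 comparisons stayed within 1.5 times their count under every setting run.

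The replicate block changed the KO count from 1 to 0 and no other count; arrays of the same number had residual correlations of -0.0958 to 0.0846 over 30 pairs of arrays, so equal numbers were not taken to mark paired arrays. Of 932 refits of 50 called values, 780 kept the call, 151 kept only the direction and 1 reversed: Gpc3 in the difference of the mutant effects went from -0.34 to 0.51 with the other WT maxillary control. Of 914 refits of 47 values not called, 20 were called. Over all genes, shifting to a common median moved the share of calls that were higher from 43.1% to 55.7% between the branches and from 50.3% to 32.1% in the KO group. The causes were not tested, except that stricter thresholds call fewer genes by construction. For ligands with signals under about 32, the constant added before the log2 step, log2 changes were understated. No background level was measured.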
